A study of Rattus norvegicus with 4 samples.

Results

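Kit, Kitlg, Gdnf, Ret, Gfra1 and Uchl1, 6 genes of the signals that hold or release spermatogonia in the rat testis, were followed across the vitamin A-deficient testis and 4, 8 and 24 h after retinol. They were taken as every probe set whose platform annotation names a single one of these genes, which gave 13 probe sets of 7006 with 1 gene symbol (6 genes of 4736). Ret and Uchl1 had 3 each, Kit, Kitlg and Gfra1 had 2 each and Gdnf had 1. All 13 are shown, and none was removed by a filter.

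The samples were whole testis of rats given a diet without vitamin A from 20 days of age for 9 weeks. The untreated group (VAD, 0 h) was deficient testis, and the other 3 groups were deficient testis 4, 8 and 24 h after retinol. All 4 groups therefore carry the deficiency, and a testis of vitamin A-sufficient animals is not analysed here. The sources used here name neither the strain nor how many animals stand behind a sample. Each group is 1 sample on an Affymetrix short-oligonucleotide array, so no difference below has a replicate check or a p-value. The deposited value is a linear ratio whose reference is not stated. The VAD column had a median of 0.995 and the 4, 8 and 24 h columns of 0.934, 0.923 and 0.922. A ratio holds no signal level, so testis markers could not be checked for presence and genes are not ranked by abundance. In whole testis, more cells of a type and more RNA per cell cannot be told apart.

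Kitlg encodes the Kit ligand (stem cell factor), made by Sertoli cells, and Kit is its receptor tyrosine kinase, which appears as spermatogonia begin to differentiate and is also present on Leydig cells and mast cells. Gdnf encodes a factor that Sertoli and peritubular myoid cells secrete. It binds the co-receptor Gfra1 and signals through the receptor kinase Ret on undifferentiated spermatogonia, which it keeps in self-renewal. Uchl1 encodes a ubiquitin hydrolase that marks spermatogonia in the testis and is abundant in neurons. Vitamin A deficiency holds back the differentiation of undifferentiated spermatogonia, and retinoic acid made from retinol starts it. Which germ cells remained in these samples was not measured.

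Kit, Kitlg and Gdnf, the genes with a probe set at least 2-fold higher after retinol, are shown with the bases just before the annotated gene, 5′ to 3′, on the gene's own strand (RefSeq, build GRCr8). Capitals mark the GC box GGGCGG, the TATA box TATAAA and the retinoic acid receptor half-sites (the letters AGGTCA, or with the start changed GGGTCA, or with the third letter changed AGTTCA, or with both changed GGTTCA), each searched on both strands, so that CCGCCC is a GC box read from the other strand. The Kit stretch lies at chr14:32978896-32979062 on the minus strand, the Kitlg stretch at chr7:36782410-36782620 on the plus strand and the Gdnf stretch at chr2:58621077-58621326 on the plus strand.
Kit: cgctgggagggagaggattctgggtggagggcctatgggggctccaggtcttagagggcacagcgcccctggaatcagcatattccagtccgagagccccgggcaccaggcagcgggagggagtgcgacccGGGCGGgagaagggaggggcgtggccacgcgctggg
Kitlg: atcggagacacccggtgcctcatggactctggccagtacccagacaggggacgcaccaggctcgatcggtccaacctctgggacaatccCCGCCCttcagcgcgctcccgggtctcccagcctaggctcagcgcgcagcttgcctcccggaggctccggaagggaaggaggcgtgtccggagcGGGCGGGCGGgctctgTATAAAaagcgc
Gdnf: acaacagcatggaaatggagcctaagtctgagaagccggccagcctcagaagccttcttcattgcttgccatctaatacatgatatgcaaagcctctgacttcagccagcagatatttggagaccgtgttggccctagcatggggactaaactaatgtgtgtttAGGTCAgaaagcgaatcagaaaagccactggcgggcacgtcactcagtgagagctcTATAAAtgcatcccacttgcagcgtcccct

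The Gdnf stretch held a TATA box and the half-site AGGTCA, with first bases at -30 and -86 from the annotated start. That of Kitlg held a TATA box and 3 GC boxes, 2 of them overlapping, and that of Kit held 1 GC box. In windows of 300 bases around the start (250 before and 50 after), a TATA box was found in 14.3% of 27457 genes, a GC box in 34.9% and such a half-site in 43.8%. Over these windows Gfra1 held 2 half-sites and 2 GC boxes, Uchl1 a TATA box and a GC box, and Ret none of the 3 motifs. The E-box CANNTG was found once each in Kit, Kitlg, Gdnf and Ret, against 71.6% of all genes, and the cyclic AMP half-site TGACG in Gdnf, against 22%. The windows of Gfra1 and Uchl1 lie wholly inside the annotated gene span and are not printed. These matches describe letters, and binding was not measured.

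Across the 24 h, Gdnf was high at 4 and 8 h and back near its VAD value at 24 h. Kit was higher on each later array, Uchl1 differed on the 24 h array alone, and Kitlg was highest at 24 h in both probe sets. Gfra1 was above VAD on every retinol array and Ret below it as deposited. Every difference is in log2 units, taken from the VAD array where no other is given, so the 4, 8 and 24 h values share that 1 array. The median over all genes was -0.09, -0.12 and -0.12 at 4, 8 and 24 h.

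**Figure D1:**
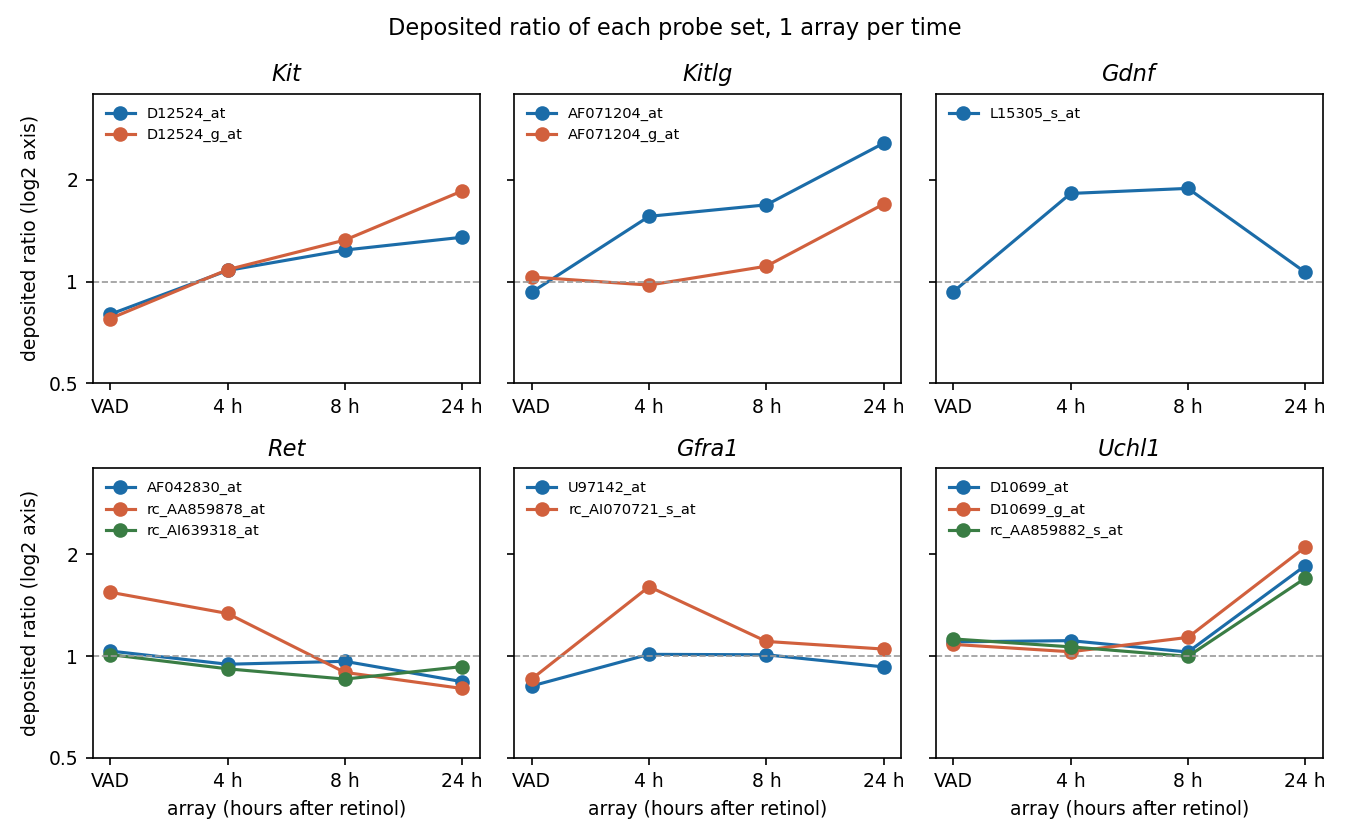
Deposited ratio (log2 axis) of each of the 13 probe sets on the VAD, 4, 8 and 24 h arrays, with 1 panel per gene, 1 line per probe set and a dashed line at a ratio of 1. Gdnf peaks at 1.82 and 1.89 on the 4 and 8 h arrays, and the 3 Uchl1 probe sets leave the line at 1 together on the 24 h array, at 1.70 to 2.10.

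A pair of measures puts these differences in scale. The first is the SD of the difference between paired probe sets of a gene that derive from distinct database entries, divided by the square root of 2, over 1083 pairs. At 4, 8 and 24 h it came to 0.42, 0.52 and 0.57, and 0.33 from 4 to 8 h and 0.32 from 8 to 24 h. For 793 pairs from the same sequence it was 0.34, 0.38 and 0.40 at 4, 8 and 24 h. It holds probe error and leaves out the spread between animals. The second is the share of all 7006 probe sets past the same fold.

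Against VAD, 0 of the 13 probe sets were at least 2-fold higher at 4 h, where 2.21% of all probe sets were. At 8 h it was 1 (Gdnf), against 4.04% of all, and at 24 h 2 (the g_at probe set of Kit and the _at probe set of Kitlg), against 4.68%. None of the 13 was at least 2-fold lower at any time, against 1.58%, 2.53% and 3.41% of all at 4, 8 and 24 h. With spike-in scaling 4, 4 and 7 of the 13 were 2-fold higher, where 12.0%, 12.5% and 18.1% of all probe sets were. None was lower, against 0.285%, 0.428% and 0.442% of all. With each array centred on its median 1, 1 and 3 of the 13 were higher, against 2.83%, 5.18% and 6.02% of all. None was lower, against 1.11%, 1.67% and 2.36%. With only 13 probe sets 1 more or fewer would change the share, so the share of members was not ranked against that of all probe sets.

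Gdnf, the ligand of the stem cell pool, was read by 1 probe set (L15305_s_at), whose suffix marks probes that can match related transcripts. Its ratio was 0.933 on the VAD array, 1.82 at 4 h, 1.89 at 8 h and 1.07 at 24 h. The 4 and 8 h arrays stood above the VAD and 24 h arrays. The differences from VAD were 0.97, 1.01 and 0.19, or 1.95-fold, 2.02-fold and 1.14-fold, and 2.40% of all probe sets were higher at 4 h. The 4 and 8 h values were 2.27 and 1.97 times the probe set SD, while those 2 arrays differed from each other by 0.05. From 8 to 24 h Gdnf was at -0.82, and 1.53% of all probe sets were lower. Against a reference of 1 in place of the VAD array, the 4, 8 and 24 h values were 0.87, 0.91 and 0.09, which leaves the 8 h value short of 2-fold. The gene has no other probe set that could bear on it.

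Gfra1, the co-receptor that binds Gdnf, had ratios of 0.816, 1.01, 1.01 and 0.929 at VAD, 4, 8 and 24 h in U97142_at. In rc_AI070721_s_at they were 0.856, 1.61, 1.11 and 1.05. Both were lowest on the VAD array, and the second peaked at 4 h. At 4 h they were at 0.31 and 0.91, a gap of 0.60 between probe sets, and at 8 h at 0.31 and 0.37. At 24 h they were at 0.19 and 0.29 against VAD, and against a reference of 1 at -0.11 and 0.07. The 4 h value of 0.91 was 2.13 times the probe set SD, while the 24 h values were 0.33 and 0.51 times it.

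Ret, the kinase through which Gdnf signals, had ratios of 1.03, 0.946, 0.965 and 0.840 at VAD, 4, 8 and 24 h in AF042830_at. In rc_AI639318_at they were 1.01, 0.917, 0.855 and 0.931, and in rc_AA859878_at 1.54, 1.34, 0.895 and 0.802. The last probe set thus started from a VAD ratio that only the top of the column reached, with 99.1% of all probe sets lower. Its differences from VAD were -0.21, -0.79 and -0.95, and against a reference of 1 they were 0.42, -0.16 and -0.32. The other Ret probe sets stayed between -0.10 and -0.30 at all 3 times, inside the probe set SD. As deposited all 9 Ret values lay below VAD. Scaling on the bacterial spike-ins, which adds the same amount to every probe set of an array, placed 7 of the 9 above it.

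Scaling an array cancels when Gdnf is set against its receptors. At 4 h it exceeded the 3 Ret probe sets by 1.10 to 1.17 and at 8 h by 1.12 to 1.80, and at 24 h by 0.31, 0.49 and 1.14. Against the 2 Gfra1 probe sets it was higher by 0.06 and 0.65 at 4 h and by 0.65 and 0.71 at 8 h, and by -0.10 and 0.00 at 24 h. Gdnf and Gfra1 were thus apart at 8 h in both probe sets, and the 4 h gap rested on which Gfra1 probe set was read. From 8 to 24 h Gdnf moved down relative to all 5 receptor probe sets, by differences of -0.95 to -0.62 for Ret and of -0.75 and -0.71 for Gfra1.

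**Figure D2:**
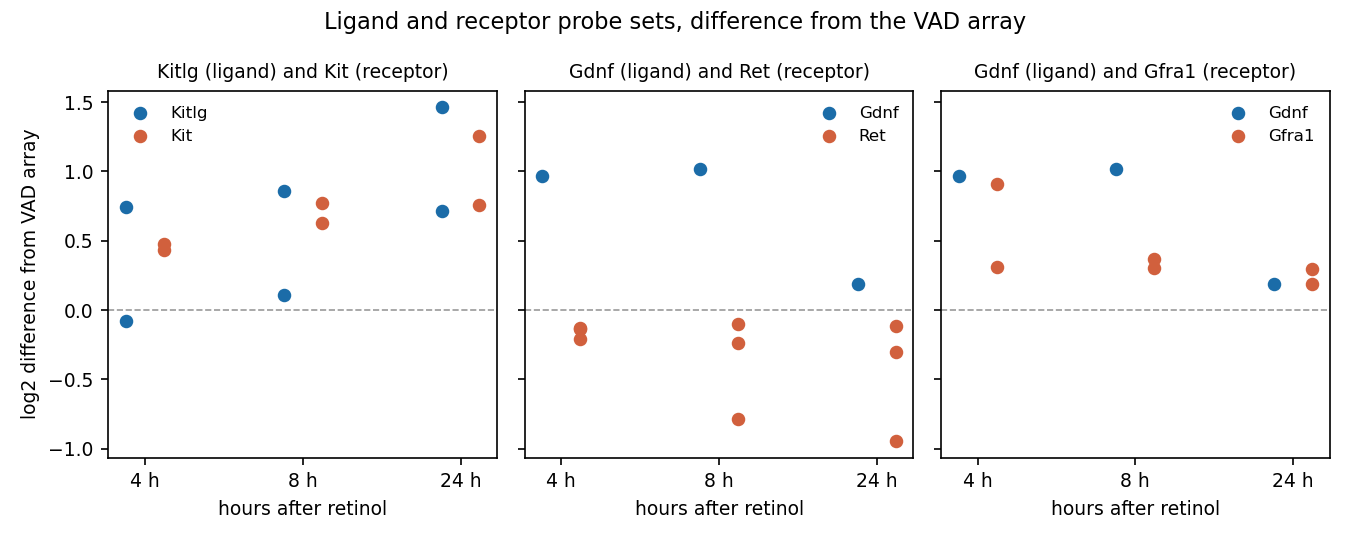
Log2 difference from the VAD array at 4, 8 and 24 h for each ligand probe set (blue) and receptor probe set (orange), in panels for Kitlg with Kit, Gdnf with Ret and Gdnf with Gfra1. Gdnf lies above every Ret probe set at all 3 times and meets Gfra1 at 24 h, while the Kitlg and Kit points interleave.

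Kitlg, the ligand that acts on differentiating spermatogonia, had ratios of 0.930, 1.56, 1.69 and 2.57 at VAD, 4, 8 and 24 h in AF071204_at. In AF071204_g_at, from the same database sequence, they were 1.03, 0.976, 1.11 and 1.70. Both were highest at 24 h, but only the first left its VAD value by 8 h. The differences from VAD were 0.75 and -0.08 at 4 h, 0.86 and 0.11 at 8 h, and 1.46 and 0.72 at 24 h. The second probe set's 4 h value changed sign when each array was centred on its median (0.01). Against a reference of 1 the 24 h values were 1.36 and 0.76. From 8 to 24 h the probe sets read 0.61 and 0.61, a step of 1.52-fold and 1.53-fold. Of 1073 genes with exactly 2 probe sets, 4 had both at least 1.5-fold higher over this step, Kitlg among them. That cut was chosen after the values were seen, and both Kitlg probe sets lay just past it.

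Kit, the receptor, had ratios of 0.80, 1.08, 1.24 and 1.35 at VAD, 4, 8 and 24 h in D12524_at. In D12524_g_at, from the same sequence, they were 0.777, 1.08, 1.33 and 1.85. The order of the arrays, VAD, 4, 8 and 24 h, was the same in both. The differences from VAD were 0.43 and 0.48 at 4 h, 0.63 and 0.77 at 8 h, and 0.76 and 1.25 at 24 h. The steps between neighbouring retinol arrays were 0.20 and 0.29 from 4 to 8 h and 0.13 and 0.48 from 8 to 24 h. Of these, only the 0.48 was larger than the probe set SD of its step. The VAD ratios were low for the column, with 7.42% and 5.89% of all probe sets lower. Against a reference of 1 the 24 h values were 0.44 and 0.89, so the 2-fold difference of Kit at 24 h rested on the VAD array as well as on the 24 h array.

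Kitlg minus Kit over the 4 pairs of probe sets ran from -0.56 to 0.31 at 4 h, from -0.67 to 0.23 at 8 h and from -0.54 to 0.71 at 24 h, with Kitlg the higher in 2 of 4 pairs each time. Ligand and receptor could not be ordered against VAD, and with a reference of 1 the median over pairs turned from -0.12 to 0.19 at 4 h and from -0.22 to 0.09 at 8 h. Over the step from 8 to 24 h, Kitlg exceeded Kit in all 4 pairs, by 0.12 to 0.49, and over the step from 4 to 8 h in 0 of 4, by -0.18 to -0.02.

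Uchl1 had ratios of 1.10, 1.11, 1.03 and 1.85 at VAD, 4, 8 and 24 h in D10699_at. In D10699_g_at they were 1.08, 1.03, 1.14 and 2.10, and in rc_AA859882_s_at 1.12, 1.065, 0.998 and 1.70. All 3 were flat to 8 h, between -0.17 and 0.07 against VAD. At 24 h they were at 0.75, 0.95 and 0.60, above every earlier array. From 8 to 24 h they read 0.85, 0.89 and 0.77, or 1.80-fold, 1.85-fold and 1.70-fold, with 1.5%, 1.34% and 1.96% of all probe sets higher. Of 492 genes with 3 or more probe sets, Uchl1 was the only 1 with every probe set at least 1.5-fold higher over this step. The 1.5-fold cut was chosen after these values were seen, so this count only describes the arrays. The Uchl1 probe sets spanned 0.12, where the median span of the 492 genes was 0.38 and 11.8% of them had a narrower span than Uchl1. The first and second Uchl1 probe sets share a database sequence and the third is from another.

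The step from 8 to 24 h leaves the VAD array out, and the 1.5-fold rule for it was chosen after its values were seen. Over it, 5 of the 13 probe sets (3 of Uchl1 and 2 of Kitlg) were at least 1.5-fold higher, where 3.77% of all probe sets were, and 1 (Gdnf) was at least 1.5-fold lower, against 3.83%. None of the 13 was past 2-fold, where 0.899% of all probe sets were higher and 0.856% lower. Counted as genes at 1.5-fold, 2 of the 6 were higher and 1 lower, against 3.08% and 3.15% of all genes. From 4 to 8 h none of the 13 was past 1.5-fold higher (4.4% of all) or lower (4.17%). The largest differences of that earlier step were those of a Ret probe set at -0.58 and a Gfra1 probe set at -0.54.

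**Figure D3:**
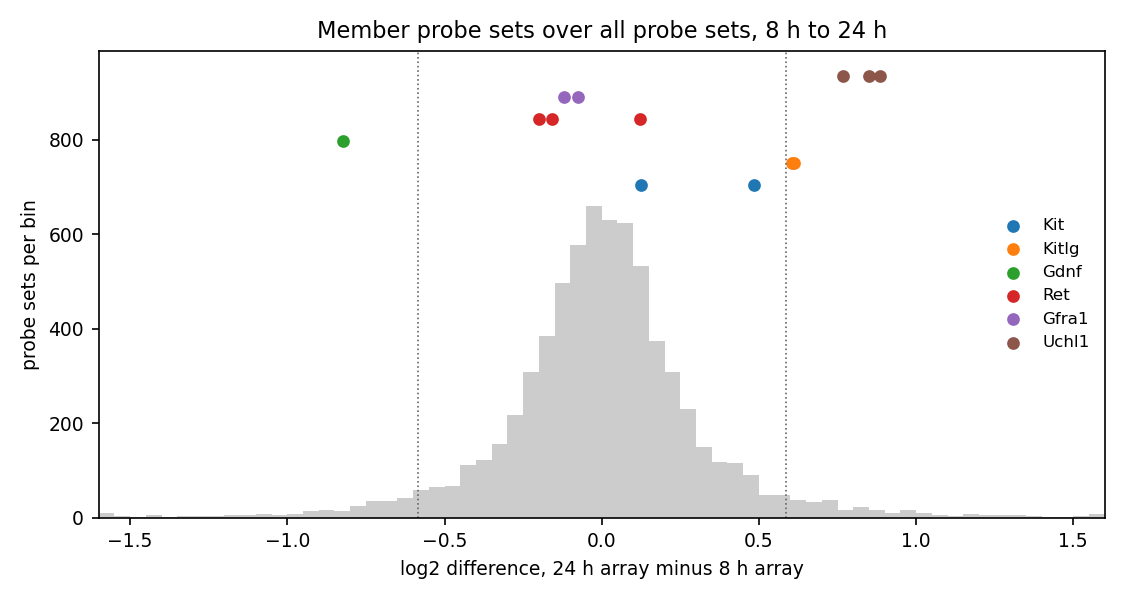
Histogram of the log2 difference between the 24 h and 8 h arrays over all 7006 probe sets (grey, counts per bin, with values beyond the axis in the end bins), and the 13 member probe sets as coloured points above it, 1 row per gene. Dotted lines mark 1.5-fold; the 3 Uchl1 and 2 Kitlg points lie to the right of them and the Gdnf point to the left, at -0.82.

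The list of Kit partners includes Kit and Kitlg, and 12 of its 20 genes were measured. Their median was 0.23, 0.53 and 0.33 at 4, 8 and 24 h against -0.09, -0.12 and -0.12 over all genes. Taken minus the median of all genes it was 0.326, 0.645 and 0.453, and without Kit and Kitlg 0.266, 0.645 and 0.335. Of all genes, 1.41%, 2.83% and 3.27% were at least 2-fold higher at 4, 8 and 24 h. The shares lower were 1.25%, 1.88% and 2.64%, and both sets of shares stand beside every list below. At 24 h 4 of the 12 were at least 2-fold higher, where 3.27% of all genes were, and 0 lower. Besides Kit and Kitlg these were the membrane proteases Adam10 (1.32, ratios of 0.846, 1.55, 2.27 and 2.11 over the 4 arrays) and Adam17 (1.05, ratios of 0.562, 0.920, 0.880 and 1.16). Adam17 is known to shed membrane-bound ligands and receptors, and its VAD ratio was far below 1. Adam10 was also the 1 member past 2-fold at 8 h (1.43). Each rests on 1 probe set. The phosphatase Ptpn6, which restrains Kit, was at -0.86, -0.86 and -0.56.

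Of the GDNF family, 8 of 18 listed genes were measured, with medians of 0.44, 0.19 and 0.01. Gdnf at 8 h was the 1 member past 2-fold. Gfra2, the co-receptor of neurturin, was at -0.02, 0.02 and -0.03. Gdf15, a distant ligand that also signals through Ret, was at 0.85, 0.77 and 0.56, and Ncam1, another receptor for Gdnf, at 0.46, 0.05 and 0.05. Of 16 genes that GDNF is known to induce or that mark the cells it maintains, 10 were measured, with medians of 0.04, -0.05 and -0.09. The transcription factor Mycn was the 1 past 2-fold, lower at 24 h (-1.39, ratios of 1.03, 0.874, 0.632 and 0.394). Mycn was lower on each later array, while Gdnf peaked at 4 and 8 h.

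Of the kinase cascade shared by Kit and Ret, 26 of 41 genes were measured, with medians of -0.12, -0.02 and -0.03. At 24 h 3 were at least 2-fold higher and 0 lower. They were the kinase Akt2 (1.70, from probe sets at 1.19 and 2.22) and the phosphoinositide 3-kinase regulatory subunits Pik3r1 (1.17, from 0.83 and 1.51) and Pik3r3 (1.14). Akt2 was past 2-fold at 4 h (1.03) and 8 h (1.35) too, and Pik3r3 at 8 h (1.30). Their VAD ratios were 0.594, 0.749 and 0.791, against a mean of 0.788 for Kit. Other genes of the same arm went both ways at 24 h. Pik3r2 was at 0.59 (from probe sets at 0.07 and 1.11) and Pik3cb at 0.27. Pdpk1 was at -0.56, Gsk3b at -0.53, Mtor at -0.43, Foxo1 at -0.17 and Akt1 at -0.03. Map2k2 of the MAP kinase arm was at -0.62, -0.81 and -0.77.

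**Figure D4:**
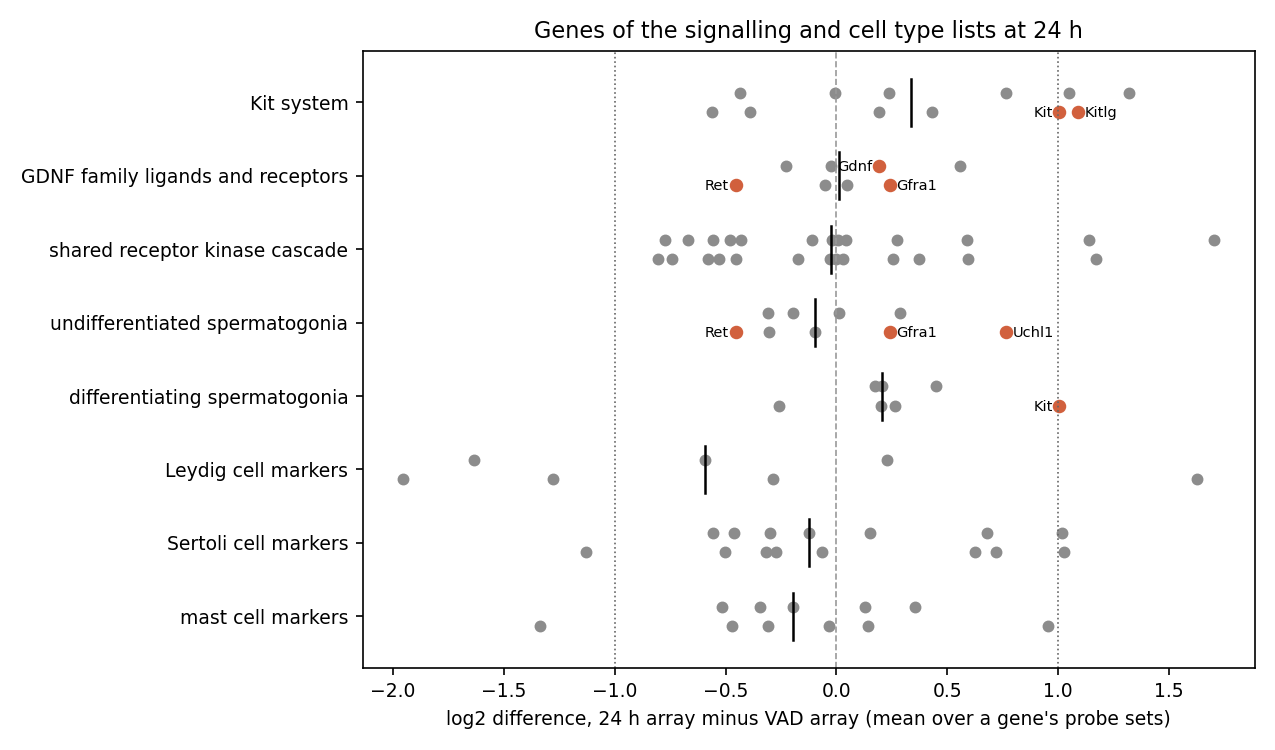
Log2 difference between the 24 h and VAD arrays for each measured gene (mean over its probe sets) of 8 lists, with members of the Kit and GDNF set in orange, other genes in grey, the list median as a black bar and dotted lines at 2-fold. Kit and Kitlg sit at 1.01 and 1.09, and the Leydig list holds genes from -1.95 to 1.63.

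Markers of the cells that carry these signals were set beside them. Of 28 genes of undifferentiated spermatogonia 9 were measured, with medians of -0.05, -0.05 and -0.10, and none passed 2-fold. Uchl1 (0.77) and Ret (-0.45) had the largest differences at 24 h, with Itgb1 at -0.31 and Thy1 at -0.30, so Uchl1 stood above the other genes of its list. Of 17 genes of differentiating spermatogonia 7 were measured, with medians of 0.38, 0.28 and 0.20, and Kit at 24 h was the 1 past 2-fold. Of the 5 listed class III receptor kinases, the family of Kit, 4 were measured, with medians of 0.15, 0.31 and 0.30. At 24 h Csf1r was at -0.39 and Pdgfra at 0.66, a mean over 4 probe sets from -0.48 to 1.40.

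The Sertoli list (15 of 21 measured) had medians of 0.07, -0.02 and -0.12, with Wt1 at 1.03 and Gja1 at 1.02 at 24 h, Gja1 at 1.05 and Krt18 at 1.27 at 8 h and Aqp8 at -1.13 at 24 h as its genes past 2-fold. The 3 Wt1 probe sets ran from 0.07 to 1.59 at 24 h. The Leydig list (7 of 10) had medians of 0.19, 0.12 and -0.59. At 24 h Cyp11a1 (-1.95), Cyp17a1 (-1.63) and Fdx1 (-1.28) were 2-fold lower and Nr5a1 (1.63, and 1.24 at 8 h) 2-fold higher. On the 24 h array 2.64% of all genes were 2-fold lower and 3.27% higher. Kit, which Leydig cells also carry, was highest on that array. The part of Leydig cells in the Kit values was not tested.

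The mast cell list (11 of 15) had medians of 0.01, -0.27 and -0.20, with Mcpt9 at -1.58 and -1.34 at 4 and 24 h past 2-fold. At 24 h 4 of the 11 were above 0, where 40.0% of all genes were. The receptor gene Fcer1a was at 0.55, 0.11 and 0.96 and the protease Cpa3 at 0.04, -0.28 and 0.35. The 2 Fcer1a probe sets were at -0.12 and 1.21 at 4 h and at 0.43 and 1.48 at 24 h. Mcpt1 was at -0.52, Mcpt4 at -0.47 and Cma1 at -0.35 at 24 h. The part of mast cells in the Kit values was not tested. The neuronal list (10 of 14) had medians of -0.12, 0.01 and -0.20, with Nefm at -1.70 and -1.15 at 4 and 8 h and Syt1 at -1.04 at 24 h. Its highest gene mean at 24 h was that of Syp (0.33, 1 probe set). Map2 was at 0.22, with probe sets from -0.63 to 0.88, and Uchl1 was at 0.77. Of the 10 neuronal genes 4 were above 0 at 24 h, where 40.0% of all genes were. From 8 to 24 h 6 of the 10 neuronal genes were above 0, with a median of 0.08 and a range from -0.93 to 0.50. The part of neurons in the Uchl1 values was not tested. The peritubular myoid list (7 of 8) was at -0.13, -0.01 and 0.06, with Pdgfra at 0.66, Cnn1 at -0.66, Tagln at -0.54 and Des at -0.43 at 24 h. The Pdgfra value is a mean over 4 probe sets that ran from -0.48 to 1.40. The endothelial list (5 of 9) was at -0.22, -0.01 and -0.22, with Kdr at -1.41, -1.15 and -1.35. Pecam1 was at 0.39, 0.48 and 0.65 and Vwf at -0.22, 0.43 and 0.47. The macrophage list (4 of 7) was at -0.13, -0.16 and -0.06, with Aif1 at -0.51, Itgam at 0.43, Csf1r at -0.39 and Lyz2 at 0.27 at 24 h. In ratio, the median of these 5 lists ran from 0.812 to 1.08 over the 4 arrays. Ratios do not show whether a marker is at 0.

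Among other signals of the spermatogonial niche, 1 ligand and 1 receptor passed 2-fold. Short of that cut at 24 h lay Jag1 (-0.94), Bmpr1a (-0.87), Erbb4 (0.91), Notch2 (0.85) and Il6st (0.82). Of 27 other ligands 20 were measured, with medians of 0.10, 0.01 and -0.08, and Bmp4 was the 1 past 2-fold, at -1.66, -1.70 and -0.94. Of 29 of their receptors 25 were measured, with medians of -0.02, 0.16 and 0.06, and Kdr, the vascular growth factor receptor, was the 1 past 2-fold. Fgfr1, a receptor of Fgf2, was at 0.25, 0.26 and 0.52 with 3 probe sets from 0.41 to 0.62 at 24 h, and the leukaemia inhibitory factor gene Lif at 0.57, 0.51 and 0.80. Of 16 ubiquitin hydrolase and ubiquitin genes, Uchl1 was the 1 named by a probe set with 1 symbol.

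Control probe sets along 3 transcripts bear on every difference from VAD. The 5′ probe set of beta-actin was at 1.11, 1.29 and 1.52 and the 3′ one at 0.06, 0.01 and 0.22, while from 8 to 24 h they were at 0.24 and 0.20. For hexokinase the 5′ and 3′ values were 1.36 and 0.56 at 24 h and for GAPDH 0.59 and -0.33. From 8 to 24 h the 2 ends of GAPDH were at -0.04 and -0.06 and those of hexokinase at 0.03 and 0.33. Where the 13 probe sets lie along their transcripts is not known here, and the part of this in their values was not tested.

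The genes whose 3 differences from VAD lay closest to those of a member, by Euclidean distance over 1565 genes with 2 or more probe sets, share all 4 arrays with it. For Kit they were Erbb4 (distance 0.18), Pik3r1 (0.19) and Bcl2l1 (0.20), with Erbb4 at 0.35, 0.58 and 0.91. For Kitlg they were Cfp (0.18), Txnip (0.18) and again Erbb4 (0.21). Gdnf, read by 1 probe set where the genes searched have 2 or more, had its nearest farther off. They were Lmnb1 (0.34, also below the probe set SD at all 3 times), Akap12 (0.50) and Cdkn1a (0.51). Lmnb1 (0.86, 0.89 and -0.11) alone of these was back at its VAD value by 24 h. For Uchl1 they were Calca (0.17), Cyp2e1 (0.19) and Opn1mw (0.20), with probe sets of Calca at 0.10 and 1.16 at 24 h. For Gfra1 they were Brca1 (0.17), Grhpr (0.18) and Shank2 (0.19). The nearest to Ret were Camk4 (0.03), Ap2s1 (0.03) and Pcyt2 (0.04). These distances are below the probe set SD, as are those named for Kit, Kitlg, Gfra1 and Uchl1. At 8 h the Ret mean came from probe sets at -0.79 to -0.10 and that of Camk4 from -0.975 and 0.268. At 4, 8 and 24 h 42.0%, 26.3% and 22.1% of genes were lower than Ret, against 98.4%, 97.4% and 75.1% for Gdnf. A smaller distance for Ret is thus not read as closer likeness.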

How the data were processed

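Whole rat testis was measured in 4 samples, 1 per group, grouped by their source labels; per the labels, labelled cRNA was made from 10 micrograms of total RNA. The values deposited by the authors are linear ratios per probe set, 8799 in all, 59 of them Affymetrix controls. GCOS and MAS5 are named in the submitters' processing notes; no source used here gives the step from signal to ratio or its reference. Depth does not apply to arrays, and their number limits the precision.

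Symbols come from the platform annotation, updated by Entrez ID where RefSeq (GRCr8) lists it (6985 probe sets). A probe set without exactly 1 symbol was left out, and none with several named a member. Ratios were put on the log2 scale without a filter, floor or pseudocount, and arrays were subtracted (Python 3.11.15, pandas 2.3.3). No test was run. The noise estimate and the 2-fold count at 24 h were tested on simulated data. The members, the 17 gene lists and the rules were chosen with earlier results of these data known. All member probe sets are named; of each list, every gene past 2-fold against VAD, otherwise up to 4 with the largest 24 h difference, and for each member the 3 nearest genes. Ptpn6, Gfra2, Gdf15, Ncam1, Akt1, Pdpk1, Gsk3b, Mtor, Foxo1, Map2k2, Fcer1a, Cpa3, Pecam1, Vwf, Fgfr1, Lif and, among the class III kinases, Pdgfra and Csf1r were added after their values were seen. The same holds for Pik3r2, Pik3cb, Mcpt1, Mcpt4, Cma1, Map2 and Syp. So it does for Jag1, Bmpr1a, Notch2 and Il6st, and for Erbb4 as a niche receptor. Alternatives were median centring, scaling on 9 spike-in probe sets, a reference of 1, other thresholds, counting genes, leaving out the members, and reading each gene from its probe set of highest mean ratio.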

Additional observations from a re-analysis of the deposited data

How the results depend on the processing

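With 1 array per group, a value was taken as unmoved when it shifted by less than the probe set SD (divided by the square root of the number of genes for a list), and a count when it stayed within 1.5 times. Centring and spike-in scaling cancel by construction in ligand minus receptor and in list medians taken relative to all genes, so they bear on neither. A reference of 1 turned the sign of Kitlg minus Kit at 4 h (0.19) and 8 h (0.09), within the probe set SD. For single probe sets 127 alternatives left the value unmoved and 29 did not, and 26 of the 29 came from spike-in scaling. It adds 0.55, 0.50 and 0.62 at 4, 8 and 24 h, and centring adds 0.09, 0.11 and 0.11. Each amount is the same for every probe set, so under this rule both outcomes were fixed whatever the gene. A reference of 1 moved 3 values and left 36. In sign, spike-in scaling turned 6, 4 and 2 of the 13 at 4, 8 and 24 h. Centring turned 3, 2 and 0 of them, and for a reference of 1 it was 3, 1 and 1. The values past 2-fold were all higher than VAD, so centring and spike-in scaling, which only add to a value here, could not reverse one. A reference of 1 and the gene mean reversed none. Probe sets at least 2-fold higher against VAD, 0, 1 and 2 at 4, 8 and 24 h, became 4, 4 and 7 with spike-in scaling (12.0%, 12.5% and 18.1% of all probe sets) and 3, 4 and 7 at 1.5-fold (8.14%, 10.4% and 11.6%). Centring gave 1, 1 and 3 (2.83%, 5.18% and 6.02%), with a Uchl1 probe set entering at 24 h (1.06). A reference of 1 gave 0, 0 and 2 (2.74%, 3.74% and 4.25%), where at 24 h that Uchl1 probe set (1.07) replaced the one of Kit (0.89). At 1.5-fold, 1 was lower at 8 h and 1 at 24 h (14.0% and 15.6% of all), the Ret probe set that had the high VAD ratio. From 8 to 24 h the 5 higher and 1 lower at 1.5-fold became 0 and 0 at 2-fold, an alternative chosen after seeing the data (0.899% and 0.856% of all), and 2 higher when genes were counted (3.08% of all genes). Reading each gene from its highest-ratio probe set, the list median minus that of all genes became 0.71 for the Kit partners at 24 h (0.45 otherwise), 0.13 for differentiating spermatogonia at 8 h (0.39), 0.10 for other niche ligands at 4 h (0.19) and -0.23 for Leydig markers at 24 h (-0.48). Without the 6 member genes it became 0.17 for differentiating spermatogonia at 8 h and 0.052 for the class III kinases at 24 h (0.41). The cause of these shifts was not tested, beyond the fewer genes once the members are left out. No paired analysis was possible because each group has 1 sample.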
